A study of Homo sapiens with 4 samples.

Results

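A set of 45 genes of DNA replication and nucleotide synthesis was followed in A549 and HCC827 cells, established human lung adenocarcinoma (LAD) lines, with and without constitutively active AKT1. The genes were taken by symbol from a list of origin licensing, fork, polymerase, nucleotide supply and chromatin assembly factors. All 45 were found among the 60558 genes with a value in each library. The A549-myr-AKT1 and HCC827-myr-AKT1 cells had been transduced with AKT1 carrying a myristoylation signal, which holds the kinase at the membrane and keeps it active. Their controls, A549-vector and HCC827-vector, carried the vector, and the sources name no further treatment of any group. Each of the 4 groups was 1 library, so a difference within a line has no replicate check, and the sources do not say whether a line was a clone or a pool.

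DNA replication is licensed in G1, when the origin recognition complex (ORC), CDC6 and CDT1 load the ring of MCM2 to MCM7 onto origins and geminin later blocks reloading. In S phase CDC45 and the GINS complex join the ring to form the active helicase. DNA polymerases, held on the template by the PCNA clamp, then copy both strands from nucleotides that ribonucleotide reductase and the thymidylate enzymes supply, and chromatin is rebuilt behind the fork. Many of these genes are transcribed at the G1/S boundary by E2F factors, which RB family proteins restrain in resting cells, so their mRNAs are widely used to follow proliferation in tumor cells.

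The promoters of the 4 members with the lowest mean log2 fold change over the lines are shown because they carry the letters searched for in all members below. They are the 250 bases before the RefSeq start (GRCh38.p14), 5′ to 3′ on the strand of the gene, and capitals mark an E2F spelling or a CCAAT box on either strand. UHRF1 lies at chr19:4909251-4909500 on the plus strand, MCM10 at chr10:13161308-13161557 on the plus strand, CDC45 at chr22:19479670-19479919 on the plus strand and GINS2 at chr16:85688955-85689204 on the minus strand.
UHRF1: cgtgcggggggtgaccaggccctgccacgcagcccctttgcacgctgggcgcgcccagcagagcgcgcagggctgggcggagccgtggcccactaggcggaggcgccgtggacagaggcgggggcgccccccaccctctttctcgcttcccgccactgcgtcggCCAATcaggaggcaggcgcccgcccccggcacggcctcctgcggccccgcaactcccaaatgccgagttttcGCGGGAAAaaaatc
MCM10: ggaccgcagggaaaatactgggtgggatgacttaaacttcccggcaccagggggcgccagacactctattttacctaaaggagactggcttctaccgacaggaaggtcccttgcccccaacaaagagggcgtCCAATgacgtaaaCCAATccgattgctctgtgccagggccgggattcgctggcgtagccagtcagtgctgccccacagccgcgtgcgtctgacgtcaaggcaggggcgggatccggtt
CDC45: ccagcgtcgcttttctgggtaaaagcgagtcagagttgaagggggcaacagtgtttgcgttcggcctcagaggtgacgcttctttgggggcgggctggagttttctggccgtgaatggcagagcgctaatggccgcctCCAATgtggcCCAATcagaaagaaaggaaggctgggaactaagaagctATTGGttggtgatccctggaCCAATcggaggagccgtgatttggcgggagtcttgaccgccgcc
GINS2: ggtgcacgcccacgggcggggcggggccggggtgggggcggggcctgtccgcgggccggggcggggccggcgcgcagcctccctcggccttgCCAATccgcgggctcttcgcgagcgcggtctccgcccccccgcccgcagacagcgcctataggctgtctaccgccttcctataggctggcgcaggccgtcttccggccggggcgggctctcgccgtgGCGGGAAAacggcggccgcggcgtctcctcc
The E2F spelling was present once in the UHRF1 stretch and once in that of GINS2, close to the start in both, and was not found in the other two. A CCAAT box was found in all 4, with 4 matches in CDC45.

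The target gene was checked first. The AKT1 level was 6297 normalized counts in the A549-myr-AKT1 library against 4243 in A549-vector, and 4805 against 2175 in HCC827 cells. Both myr-AKT1 libraries were therefore higher, with log2 fold changes of 0.57 and 1.14, although reads of the construct and the endogenous gene were not separated. Over genes averaging 10 or more normalized counts in the pair, the upper quartile was 0.56 in A549 and 0.55 in HCC827 cells. The A549 rise was thus near that quartile. AKT1 was not called in the limma fit described below (adjusted p 0.134). Normalized counts are reads divided by 1 size factor per library, set within the pair of a line. Total reads were between 16322183 and 33530317, the shallower library of each pair being the myr-AKT1 library. Among the epithelial markers, EPCAM, CDH1, KRT7, KRT8, KRT18 and KRT19 had 332 or more normalized counts in every library, whereas CLDN4 had 8.73 in A549-vector cells and 292 or more elsewhere. These markers also moved with the groups. In A549 cells CDH1 had 10523 against 4021 and KRT19 2085 against 332 normalized counts in myr-AKT1 against vector cells, and in HCC827 cells KRT8 had 13519 against 47313 and KRT18 11592 against 39094. Within each line the markers went both ways, with 5 of 7 higher in A549 and 2 of 7 higher in HCC827 cells. KRT8 and KRT18 had log2 fold changes of -0.36 and -0.38 in A549, and CDH1 and CLDN4 had 0.31 and 0.47 in HCC827 cells. Their part in the results below was not tested.

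Every member was lower in myr-AKT1 than in vector cells of both lines. In A549 cells the median log2 fold change of the 45 members was -2.43, beside -0.03 over the 18750 genes whose normalized count averaged 10 or more in the pair. In HCC827 cells the median was -1.61, beside -0.04 over 17358 genes. The members together took 0.446% of the reads in A549-vector and 0.109% in A549-myr-AKT1 cells, and 0.405% and 0.138% in the respective HCC827 cells. In bulk RNA, fewer cells in S phase and less of these mRNAs per cell cannot be told apart.

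A log2 fold change below -1 was reached by 42 of 45 members in A549 cells, where 9.87% of all genes reached it, and by 39 members in HCC827 cells, where 12.4% did. Below -2 were 33 members in A549 and 10 in HCC827 cells, beside 2.81% and 3.08% of all genes. No member was above 1 in either line, a value that 15.1% of all genes exceeded in A549 and 14.1% in HCC827 cells. The 95% interval of the log2 fold change, which covers counting error only, lay below 0 for all 45 members in both lines, as it did for 36.5% and 37.1% of all genes. Below -1 in both lines were 37 members, beside 4.08% of the 15704 genes expressed in both pairs. POLA2, RFC4, TIMELESS, RPA2 and RPA3 were below -1 in A549 cells alone, PCNA and DUT in HCC827 cells alone, and POLD2 in neither.

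**Figure D1:**
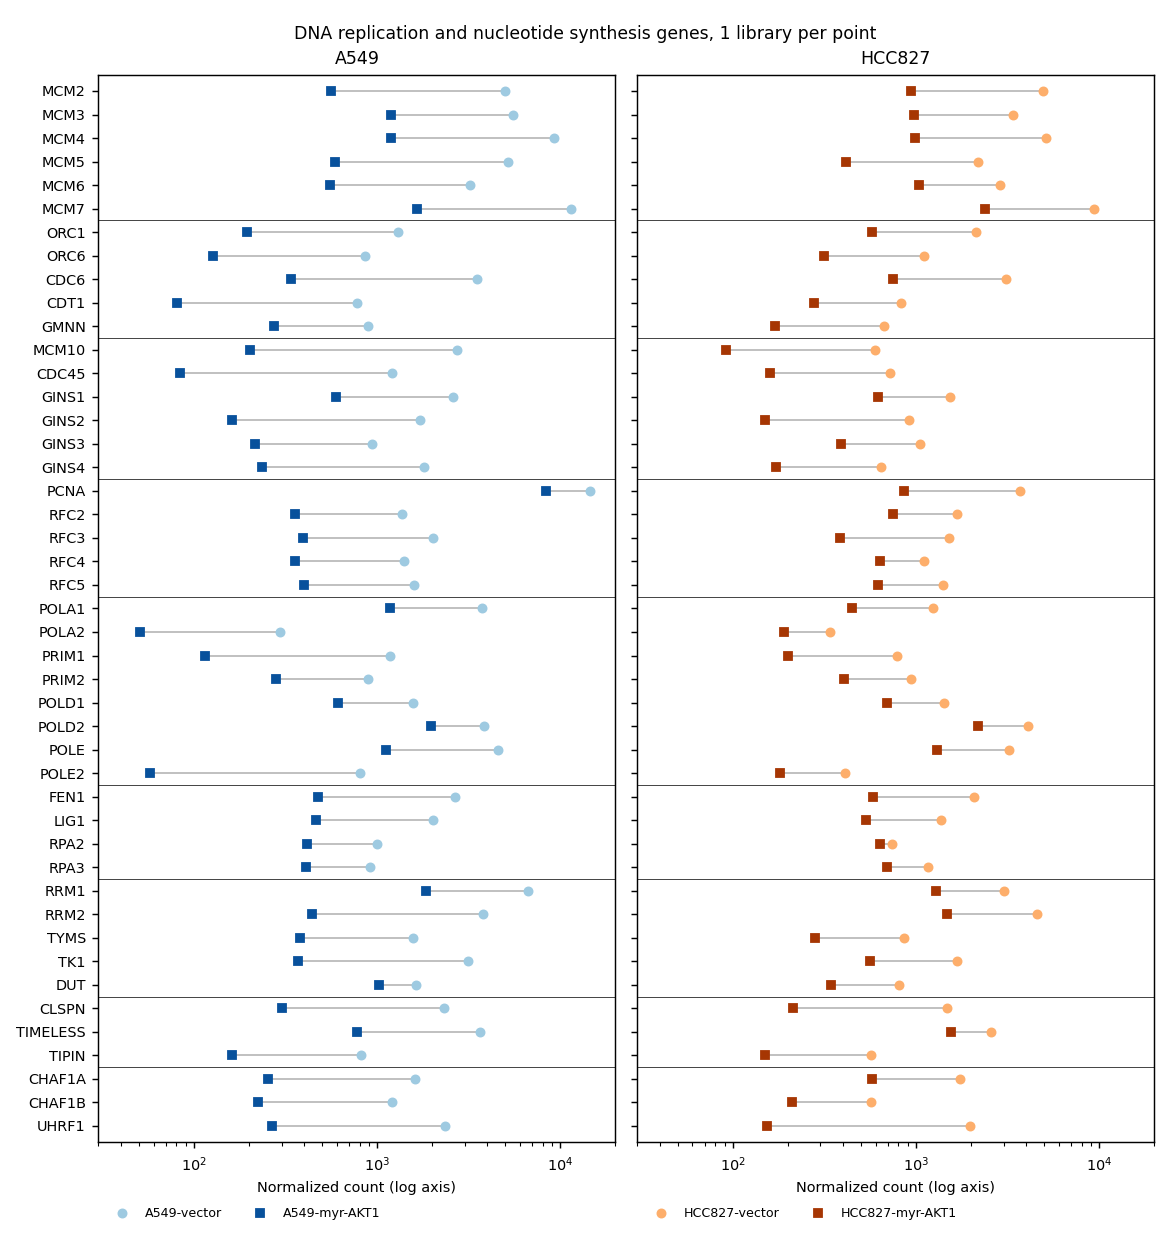
Normalized count of each member (horizontal log axis) in the A549 panel and the HCC827 panel, with 1 point per library, circles for vector and squares for myr-AKT1, and horizontal rules between functional groups. The square lies left of the circle for all 45 members in both lines. The gap is narrowest for DUT in A549 and for RPA2 in HCC827 cells.

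Both lines were then fitted together by limma on log2(normalized count + 1), blocked by cell line, with Benjamini-Hochberg adjustment over 19314 genes. In this fit 34 of 45 members fell at an adjusted p under 0.05 and none rose, beside 1.73% of all genes lower and 1.29% higher. UHRF1 had the lowest adjusted p of the members, 0.00594, with a log2 fold change of -3.41 ± 0.31 (SE) and a lower level in both lines. The 11 members not called were PRIM2, POLD1, POLD2, POLA2, POLE2, PCNA, RFC4, RPA2, RPA3, TIMELESS and DUT. RPA2 had the highest adjusted p, 0.306, and 44 members had an unadjusted p under 0.05. The share of all genes at that unadjusted cut was not taken. The fit leaves 1 residual degree of freedom. It made 0 calls among the members with a pseudocount of 0.1, 7 by edgeR with DESeq2 size factors and 13 with size factors over all 4 libraries.

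The 6 subunits of the MCM2-7 ring, the core of the replicative helicase, were lower together and were all called in the fit. In the values that follow, the myr-AKT1 library is given first and the vector library second. MCM2 had 562 against 4985 normalized counts in A549 and 937 against 4945 in HCC827 cells. MCM3 had 1185 against 5488 normalized counts in A549 and 969 against 3364 in HCC827 cells. MCM4 had 1194 against 9256 normalized counts in A549 and 983 against 5113 in HCC827 cells. Levels in myr-AKT1 cells were thus at 11.3% to 21.6% of vector in A549 for these subunits, and at 19.0% to 28.8% in HCC827 cells. For MCM5 the values were 589.7 against 5147 normalized counts in A549 and 411 against 2178 in HCC827 cells. For MCM6 they were 549.7 against 3194 normalized counts in A549 and 1034 against 2858 in HCC827 cells. For MCM7, the most abundant subunit per kilobase of exon in all 4 libraries, they were 1651 against 11376 normalized counts in A549 and 2376 against 9321 in HCC827 cells. The log2 fold changes of the ring spanned -3.15 (MCM2) to -2.21 (MCM3) in A549 and -2.40 (MCM5) to -1.47 (MCM6) in HCC827 cells. The normalized count of MCM2 was 0.953 times that of MCM5 in A549-myr-AKT1 and 0.968 times in A549-vector cells, and 2.28 and 2.27 times in the HCC827 pair. These 2 subunits, the only pair of the ring compared in this way, thus kept their proportion within a line. The whole ring did not, since MCM2 was at -3.15 and MCM3 at -2.21 in A549, and MCM2 at -2.40 and MCM6 at -1.47 in HCC827 cells.

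The factors that recognize origins and load the ring were also called lower, all 5 of them. ORC1, the largest ORC subunit, had 195 against 1292 normalized counts in A549 and 575 against 2127 in HCC827 cells. ORC6 had 127 against 857 normalized counts in A549 and 313 against 1104 in HCC827 cells. CDC6, the ATPase that works with ORC, had 337 against 3503 normalized counts in A549 and 746 against 3106 in HCC827 cells. Its log2 fold changes were -3.38 in A549 and -2.06 in HCC827 cells, the lowest of this group. CDT1, which brings the ring to ORC, had 80.2 against 776 normalized counts in A549 and 277 against 827 in HCC827 cells. Geminin (GMNN), the inhibitor of CDT1, had 274 against 891 normalized counts in A549 and 169 against 668 in HCC827 cells. The pair of loader and inhibitor changed unequally. CDT1 had 0.293 reads per GMNN read in A549-myr-AKT1 cells against 0.872 in A549-vector cells, whereas the ratio was 1.64 against 1.24 in HCC827 cells.

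Factors that turn the loaded ring into a moving helicase held some of the lowest values of the set. MCM10, needed to activate the helicase, had 202 against 2712 normalized counts in A549 and 91.9 against 599 in HCC827 cells. CDC45, a helicase cofactor, had 83.6 against 1198 normalized counts in A549 and 159 against 722 in HCC827 cells. In A549 cells the log2 fold change of CDC45 was -3.84 (-4.20 to -3.50), the lowest of all members and number 33 from the bottom of 18750 genes. The GINS subunits followed. GINS1 had 593 against 2588 normalized counts in A549 and 617 against 1532 in HCC827 cells. GINS2 had 161 against 1712 normalized counts in A549 and 149.7 against 909 in HCC827 cells. GINS2 was thus lower by 10.6-fold in A549 and 6.07-fold in HCC827 cells, more than any other GINS subunit in either line. GINS3 had 215 against 939 normalized counts in A549 and 388 against 1055 in HCC827 cells. GINS4 had 236 against 1795 normalized counts in A549 and 172 against 645 in HCC827 cells. All 6 genes were called in the fit. MCM10 and CDC45 each had 73 reads in the library with the fewest, so counting error is wider for them than for the ring.

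The sliding clamp and its loader were lower to a smaller degree, and PCNA was among the members nearest to 0 in A549 cells. The PCNA clamp had 8402 normalized counts in A549-myr-AKT1 and 14479.6 in A549-vector cells, and 861 against 3669 in HCC827 cells. It thus remained the most abundant member per kilobase of exon in all 4 libraries, while its log2 fold change was -0.79 (-0.83 to -0.75) in A549 and -2.09 (-2.21 to -1.98) in HCC827 cells. RFC2, a small subunit of the loader, had 357 against 1365 normalized counts in A549 and 747 against 1665 in HCC827 cells. RFC3 had 394 against 2008 normalized counts in A549 and 385 against 1508 in HCC827 cells. RFC3 was the lowest of the loader subunits in each line, at -2.35 in A549 and -1.97 in HCC827 cells on the log2 scale. RFC4 had 357 against 1406 normalized counts in A549 and 637 against 1099 in HCC827 cells. RFC5 had 396 against 1587 normalized counts in A549 and 617 against 1402 in HCC827 cells. RFC2, RFC3 and RFC5 were called in the fit, while PCNA (adjusted p 0.0675, limma) and RFC4 (0.0878) were not.

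Polymerase and primase genes showed the widest spread of any role in A549 cells. POLA1, the catalytic subunit of polymerase alpha, had 1177 against 3738 normalized counts in A549 and 444 against 1228 in HCC827 cells. POLA2, its second subunit, had 50.4 against 294 normalized counts in A549 and 189 against 338 in HCC827 cells. POLA2 had the fewest reads of any member, 44 in A549-myr-AKT1 cells, and about 16.8% of its exon bases are shared with another gene on the same strand. PRIM1, the catalytic primase subunit, had 115 against 1168 normalized counts in A549 and 199 against 787 in HCC827 cells. PRIM2, the large primase subunit, had 278 against 888 normalized counts in A549 and 403 against 940.2 in HCC827 cells. The 2 primase subunits were not lower in proportion, with 0.412 reads of PRIM1 per read of PRIM2 in A549-myr-AKT1 against 1.31 in A549-vector cells, and 0.494 against 0.837 in HCC827 cells.

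Among the genes of polymerases delta and epsilon, POLE2 was the lowest in A549 and POLE in HCC827 cells. POLD1, the catalytic subunit of polymerase delta, had 611 against 1577 normalized counts in A549 and 692 against 1411 in HCC827 cells. POLD2, its partner, had 1955 against 3813 normalized counts in A549 and 2181 against 4060.2 in HCC827 cells, near 50% of vector, at 51.3% in A549 and 53.7% in HCC827 cells. POLE, the catalytic subunit of polymerase epsilon, had 1111 against 4591 normalized counts in A549 and 1299 against 3209 in HCC827 cells. POLE2, its second subunit, had 57.3 against 803 normalized counts in A549 and 179.9 against 408 in HCC827 cells. The log2 fold change of POLE2 was -3.81 (-4.25 to -3.40) in A549 and -1.18 (-1.46 to -0.91) in HCC827 cells, the largest gap between lines of any member. Of the 8 genes, POLA1, PRIM1 and POLE were called in the fit.

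Genes of lagging strand maturation were lower by more than those of single-strand binding. FEN1, the flap endonuclease, had 472 against 2674 normalized counts in A549 and 579 against 2077 in HCC827 cells. LIG1, which seals Okazaki fragments, had 463 against 2008 normalized counts in A549 and 532 against 1365 in HCC827 cells. Both were called in the fit, with log2 fold changes in the lines of -2.50 in A549 and -1.84 in HCC827 cells for FEN1 and -2.12 in A549 and -1.36 in HCC827 cells for LIG1. RPA2, a subunit of the single-strand binding protein RPA, had 415 against 1002 normalized counts in A549 and 632 against 738 in HCC827 cells. RPA3, the smallest subunit, had 407 against 913 normalized counts in A549 and 693 against 1155 in HCC827 cells. RPA2 in HCC827 cells, at 85.7% of vector, was the least changed member of either line, and its log2 fold change there was -0.22 (-0.38 to -0.07).

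Among the nucleotide supply genes, RRM2 and TK1 were lowest in A549 cells. RRM1, the large subunit of ribonucleotide reductase, had 1854 against 6654 normalized counts in A549 and 1289.8 against 3018 in HCC827 cells. RRM2, its S-phase small subunit, had 442 against 3787 normalized counts in A549 and 1466 against 4545 in HCC827 cells. The log2 fold changes were -3.10 in A549 and -1.63 in HCC827 cells for RRM2 and -1.84 in A549 and -1.23 in HCC827 cells for RRM1. TYMS, which makes thymidylate, had 380.2 against 1561 normalized counts in A549 and 281 against 856 in HCC827 cells. TK1, the thymidine salvage kinase of dividing cells, had 371 against 3134 normalized counts in A549 and 559 against 1662 in HCC827 cells. DUT, which clears dUTP, had 1026 against 1630.4 normalized counts in A549 and 341 against 801 in HCC827 cells, and its log2 fold change of -0.67 (-0.78 to -0.55) was the nearest to 0 of all members in A549 cells. RRM1, RRM2, TYMS and TK1 were called in the fit. TYMS is less certain, because 39.9% of its exon bases lie opposite exons of ENOSF1, which had 527 to 1839 reads per library, and the sources used here do not state the strand setting of the counting.

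Of the fork protection genes, CLSPN, the adaptor through which ATR activates CHK1, was lower by a like amount in both lines. CLSPN had 301 against 2326 normalized counts in A549 and 211 against 1465 in HCC827 cells, log2 fold changes of -2.95 in A549 and -2.79 in HCC827 cells. TIMELESS, a fork protection factor, had 775 against 3638 normalized counts in A549 and 1541 against 2558 in HCC827 cells. TIPIN, the partner of TIMELESS, had 160.3 against 812 normalized counts in A549 and 149.7 against 567 in HCC827 cells. TIMELESS had log2 fold changes of -2.23 in A549 and -0.73 in HCC827 cells, so its place among the members differed between the lines. CLSPN and TIPIN were called in the fit.

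The chromatin assembly genes were all called lower. CHAF1A, the large subunit of the histone chaperone CAF-1, had 254 against 1610.3 normalized counts in A549 and 570.0 against 1736 in HCC827 cells. CHAF1B, the middle subunit, had 223 against 1206 normalized counts in A549 and 210.1 against 563 in HCC827 cells. UHRF1, which binds hemimethylated DNA behind the fork and recruits the maintenance methyltransferase DNMT1, had 265 against 2349 normalized counts in A549 and 152 against 1961 in HCC827 cells. UHRF1 was the lowest member in HCC827 cells, at 7.76% of vector, and number 67 from the bottom of 17358 genes there. Its promoter, printed above, holds 1 E2F spelling.

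**Figure D2:**
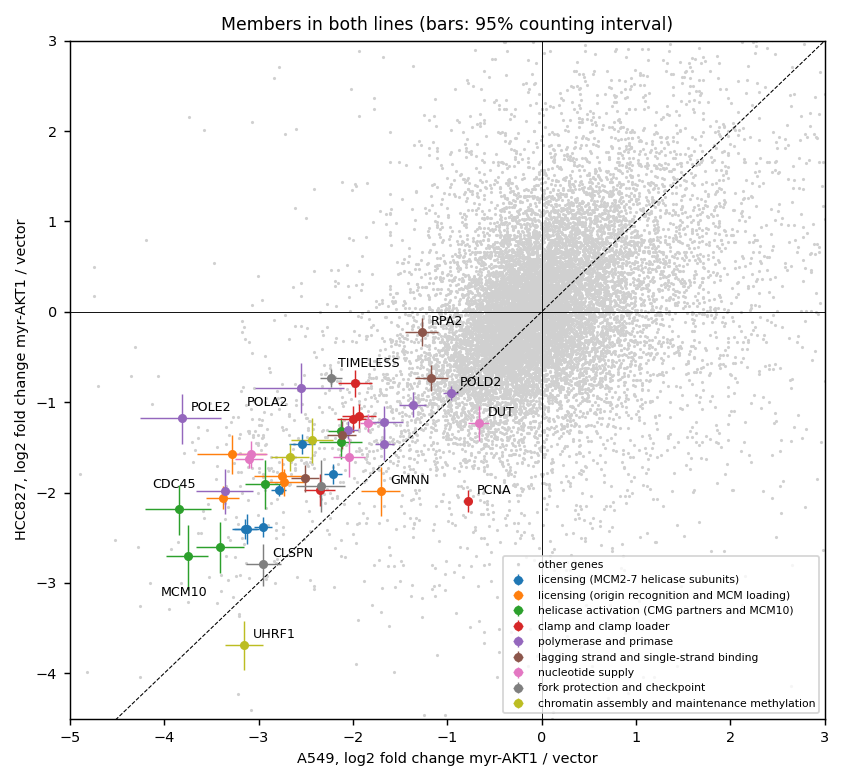
Log2 fold change of each member in A549 (horizontal) and HCC827 cells (vertical), coloured by function, with bars for the 95% counting interval, and other genes with reads in all 4 libraries in grey (points beyond the axes are not drawn). All members lie below 0 on both axes, and most lie above the dashed line of equal change, which is a lower value in A549 cells. PCNA (-0.79 and -2.09), DUT (-0.67 and -1.23) and UHRF1 (-3.15 and -3.69) lie clearly below it.

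The 2 lines differed in how far the members were lower. The log2 fold change was lower in A549 than in HCC827 cells, beyond counting error, for 39 members. It was lower in HCC827 cells for PCNA, DUT and UHRF1, and for GMNN, CLSPN and POLD2 the interval of the difference included 0. The difference (A549 minus HCC827) had a median of -0.78 and ran from -2.63 (POLE2) to 1.31 (PCNA). Its interval ended near 0 for POLA1 (-0.39 to -0.01) and TIPIN (-0.80 to -0.04), and began near 0 for GMNN (-0.05 to 0.62). These counts of members were not repeated under other scalings, which may move such members across 0. The share of all genes with such a difference was not taken, so the counts do not set the members apart from other genes. With 1 library per condition this difference has no test across samples. Across the 45 members, which share libraries and are not independent, values in the lines had a Pearson r of 0.58 and a Spearman rho of 0.62, given as a description.

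Levels were also set across lines on size factors computed over all 4 libraries. Vector cells of the lines were alike on balance, with 24 members higher in A549-vector and 21 in HCC827-vector cells and a median log2 ratio (A549 over HCC827) of 0.03. Among myr-AKT1 cells 34 members were higher in HCC827 and 11 in A549 cells, with a median log2 ratio of -0.66. The split of all genes on this scale was not taken, so these counts do not set the members apart from other genes. MCM10 was the member most in favor of A549 in vector cells, at 2263 against 666 on this scale. ORC1 was among those in favor of HCC827, at 1078 against 2366. PCNA was higher in A549 in both conditions, with log2 ratios of 1.57 in vector and 2.93 in myr-AKT1 cells. Per kilobase of annotated exon, PCNA led all members and POLA2 was last in each of the 4 libraries. Level and change were not closely related, since the Pearson r across members between the log2 fold change and the log2 vector level per kilobase was 0.09 in A549 and -0.12 in HCC827 cells.

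Genes outside the 45 were taken from lists of the same pathway. For comparison with every list below, 4.08% of the genes expressed in both pairs were below -1 in both lines. The limma fit called 1.73% of all genes lower. The list of 34 other replication genes was at a median of -1.16 in A549 and -0.95 in HCC827 cells on the log2 scale. Of these, 13 were below -1 in both lines and none was above 1, and 11 were called lower and 0 higher in the limma fit. EXO1, a mismatch and end-resection exonuclease, had log2 fold changes of -3.54 in A549 and -2.13 in HCC827 cells. DSCC1, a subunit of an alternative clamp loader, had -3.24 in A549 and -2.27 in HCC827 cells. ATAD5, which unloads PCNA, had -2.77 in A549 and -2.01 in HCC827 cells.

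The 31 other nucleotide synthesis genes had medians of -0.90 and -0.68, with 8 below -1 in both lines and 5 called lower. PFAS, an enzyme of purine synthesis, had log2 fold changes of -1.73 in A549 and -1.75 in HCC827 cells. DCTPP1, a dCTP hydrolase, had -1.70 in A549 and -1.60 in HCC827 cells. Of 10 other chromatin genes that work at the fork, 6 were below -1 in both lines and 6 were called lower, led by the histone chaperone ASF1B (-3.32 in A549 and -1.76 in HCC827 cells), the remodeler HELLS (-2.07 in A549 and -2.33 in HCC827 cells) and MMS22L (-1.99 in A549 and -1.84 in HCC827 cells).

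**Figure D3:**
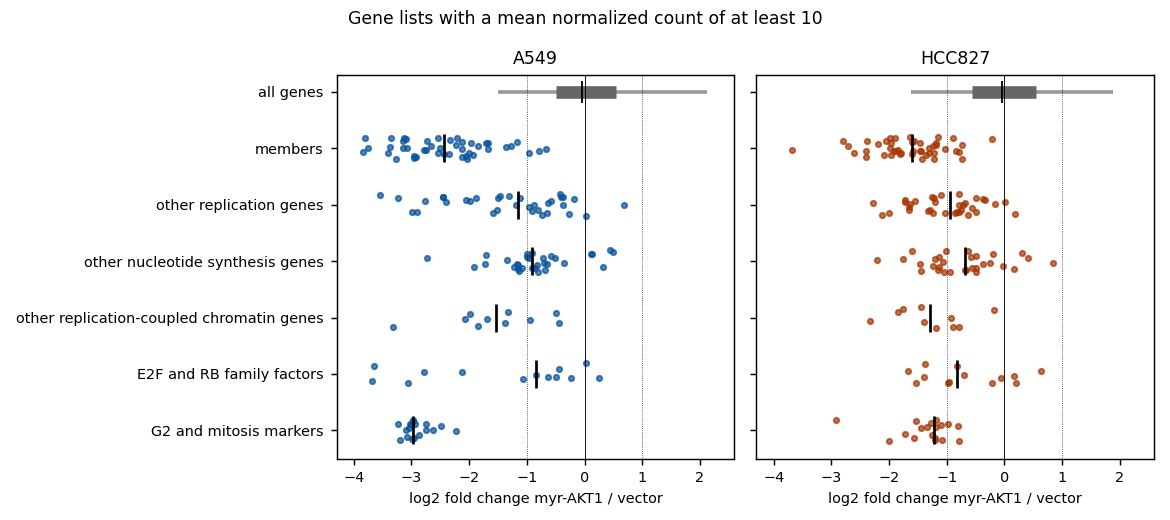
Log2 fold change of the genes of each list in A549 (left) and HCC827 cells (right), with 1 point per gene and a black tick at each median, and for all genes a thick bar for the middle 50% and a thin bar from the 5th to the 95th percentile. Dotted lines mark -1 and 1. The median of the members (-2.43 and -1.61) is lower than that of every other list except the G2 and mitosis markers in A549 cells (-2.98).

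Subunits of the same complex did not all change alike, which is described here for complexes chosen after their values were seen. In ORC, the members ORC1 and ORC6 had log2 fold changes of -2.73 and -2.75 in A549 cells, while ORC2, ORC3, ORC4 and ORC5 ran from -1.19 (ORC3) to -0.19 (ORC4). In HCC827 cells ORC1 and ORC6 were at -1.89 and -1.82, and the other ORC subunits from -1.32 (ORC5) to -0.56 (ORC2). RFC1, the large subunit of the clamp loader, had -0.40 in A549 and -0.50 in HCC827 cells, nearer to 0 than RFC2 to RFC5 in both lines. RPA1, the large subunit of RPA, had -0.57 in A549 and -0.37 in HCC827 cells. RPA2 in HCC827 cells was thus nearer to 0 than RPA1. POLD4, the smallest subunit of polymerase delta, was not lower in either line (0.68 in A549 and 0.18 in HCC827 cells), and POLE4 was near 0 (0.02 in A549 and -0.17 in HCC827 cells).

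The S-phase enzymes stood apart from their counterparts that are not tied to S phase. RRM2B, the small ribonucleotide reductase subunit induced by p53, had 4307 against 3049 normalized counts in A549 and 929.9 against 1370.1 in HCC827 cells. RRM2 accordingly had 0.103 times the normalized count of RRM2B in A549-myr-AKT1 and 1.24 times in A549-vector cells, and 1.58 and 3.32 times in the HCC827 pair. TK2, the mitochondrial thymidine kinase, had 1400.5 against 1033 normalized counts in A549 and 1136 against 633 in HCC827 cells, log2 fold changes of 0.44 in A549 and 0.84 in HCC827 cells. TK1 had 0.265 and 3.03 times the normalized count of TK2 in the A549 pair, and 0.492 and 2.63 times in the HCC827 pair.

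**Figure D4:**
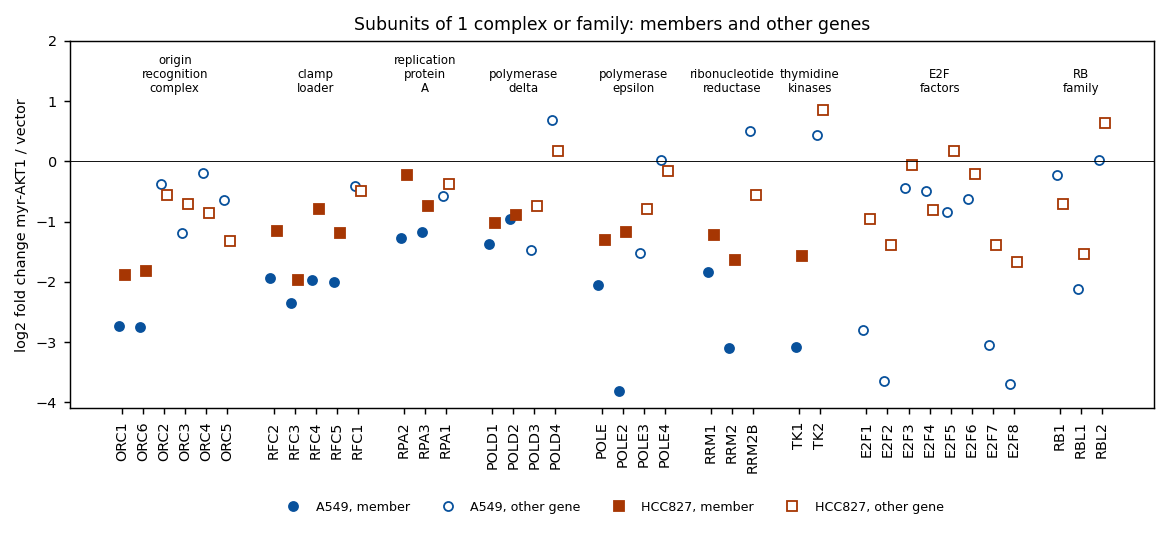
Log2 fold change of subunits or relatives within complexes and families, with circles for A549 and squares for HCC827 cells, filled for members and open for other genes. ORC1 and ORC6 lie below ORC2 to ORC5, and RRM2 and TK1 lie below RRM2B and TK2, in both lines. E2F1, E2F2, E2F7 and E2F8 lie below E2F3 to E2F6 in both lines.

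E2F factors and the RB family were described as the known transcriptional regulators of the members. Of 13 genes, 4 were below -1 in both lines (E2F2, E2F7, E2F8 and RBL1) and 3 of these were called lower, all but E2F2. The respective shares were 4.08% of the genes expressed in both pairs and 1.73% of all genes. E2F8, a repressor of the family that is itself transcribed in S phase, had 37.8 against 488 normalized counts in A549 and 247 against 783 in HCC827 cells. E2F2, an activator, had 45.8 against 572 normalized counts in A549 and 60.4 against 159 in HCC827 cells. E2F7, the other atypical repressor, had 116 against 961 normalized counts in A549 and 325 against 848 in HCC827 cells. The log2 fold changes of the activator E2F1 were -2.79 in A549 and -0.95 in HCC827 cells, with an adjusted p of 0.0750 in the limma fit. RBL2 (p130), the RB family protein of resting cells, had log2 fold changes of 0.02 in A549 and 0.63 in HCC827 cells, and RB1 had -0.23 in A549 and -0.70 in HCC827 cells.

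Lower mRNA levels were not confined to S-phase genes. All 18 G2 and mitosis markers were below -1 in A549 cells (median -2.98) and 15 were in HCC827 cells (median -1.23), and 14 were called lower in the fit. Of all genes, 9.87% in A549 and 12.4% in HCC827 cells were below -1, and 1.73% were called lower. CENPF, a kinetochore protein, had -3.24 in A549 and -2.92 in HCC827 cells. TOP2A, which untangles chromosomes, had -3.01 in A549 and -2.01 in HCC827 cells. BUB1B, a spindle checkpoint kinase, had -3.19 in A549 and -1.56 in HCC827 cells. In A549 cells the median of these markers was lower than that of the replication members, and in HCC827 cells it was higher.

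Promoter windows of 300 bases, from 250 before to 50 after the RefSeq start, were found for 40 of 45 members. MCM4, MCM5, GINS4, RPA2 and RPA3 had no entry. An E2F spelling (TTTCCCGC, TTTCGCGC, TTTGCCGC or TTTGGCGC, on either strand, where spellings on opposite strands may overlap) was found in 19 of 40 members, 47.5%. It was found in 3.37% of 27305 genes with a window and in 4.57% of 15345 protein-coding genes. The CCAAT box was found in 57.5% of members, 35.7% of all windows and 36.6% of protein-coding windows. The letters TTTGAA are the core of the cell cycle homology region of late cell cycle promoters. They were found in RRM1 alone of the members, 2.5%, against 15.2% of all windows and 11.6% of protein-coding windows. The median GC content of the windows was 65.7% for members and 63.7% for protein-coding genes.

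For members with an E2F spelling the median of the log2 fold changes was -2.54 in A549 and -1.61 in HCC827 cells, and members with a window but no such spelling had -2.23 and -1.57. MCM2, MCM3, MCM6, MCM7 and TIPIN held more than 1 match. CDC45 and MCM10, among the lowest members, held none, and POLA2, which was among the members nearest to 0 in HCC827 cells, held 1. E2F sites of other spelling were not searched, so a window without a match may still hold one. A match is a description of letters in the window, and no binding was measured.

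**Figure D5:**
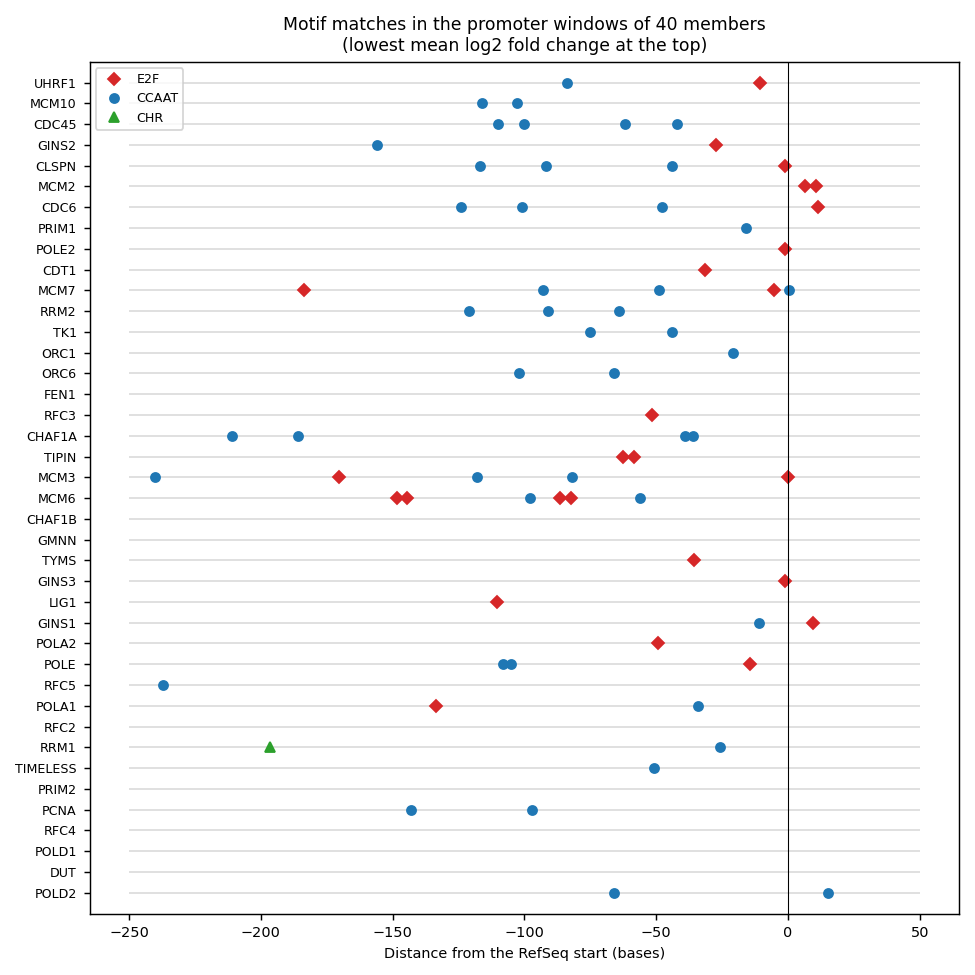
Position of motif matches in the promoter windows of 40 members, as distance from the RefSeq start in bases, with 1 line per member ordered from the lowest mean log2 fold change at the top. Diamonds mark an E2F spelling (19 members), circles a CCAAT box (23 members) and the triangle TTTGAA (RRM1). Both frequent motifs lie mostly within 150 bases before the start, and members with an E2F spelling occur along the whole order apart from the last 9.

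Summed markers of other cell types were higher in the myr-AKT1 libraries, though not every marker was, and are given beside these results. The summed normalized count of 7 fibroblast markers was 1205 in A549-myr-AKT1 and 155 in A549-vector cells, and 189 against 52.5 in HCC827 cells, while COL1A2 was at 0 in all libraries. COL1A1 (765) and LUM (348) were the largest parts in A549-myr-AKT1 cells, while in A549 PDGFRA had 43.5 against 42.8 and PDGFRB 4.58 against 5.24. For 7 immune markers the sums were 815 against 39.3 and 165 against 92.2, with CD14 the largest part in the A549 cells with myr-AKT1 (784) and CD3E at 0 in all libraries. In HCC827 cells CD14 had 85.6 against 15.9, CD68 15.1 in both libraries, CSF1R 57.9 against 57.2 and PTPRC 0 against 3.97. For 4 endothelial markers they were 137 against 13.97 and 203 against 81.9. The part of these signals in the result was not tested. The 27 pseudogenes named after 12 members held 5 to 19 reads in all per library, and reads that a member shares with such a copy were not measured. Besides TYMS, 4 members (MCM2, GINS3, GINS4 and DUT) have 10.9% to 23.6% of their exon bases opposite another gene, none of which had over 96 reads in a library. On the same strand, 7 members share exon bases with another gene, among them TIPIN (21.1%, with a pseudogene at 0 reads), POLA2 (16.8%) and PRIM1 (10.9%). PRIM1 also shares 4.2% with NACA (4162 to 12125 reads per library), and FEN1 2.2% with FADS2 (220 to 17652 reads).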

How the data were processed

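RNA of 4 groups was sequenced as strand-specific libraries, 1 per group, taken from the labels; the sources used here give both removal of ribosomal RNA (labels) and selection of polyadenylated RNA (methods). After trimming, the authors aligned the reads to hg38 with Bowtie2, an aligner without splicing, and counted genes with HTSeq. The deposited signal is called RPKM in the methods, but per the values it is the count of a gene over a size factor of its library (0.795 to 1.26); whole reads, within 0.001 of a whole number, were recovered for all genes with reads except 1 in each vector library. Since libraries were scaled within a line, levels across lines used size factors over all 4 libraries.

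Genes were named from GENCODE release 44, which matched 60261 of 60558 identifiers. Log2 fold changes were the ratio of myr-AKT1 to vector values with no pseudocount. Their 95% intervals (Clopper-Pearson, from the reads) cover counting error only, as PCR reads are not separate molecules. Background shares were taken over genes with a mean of at least 10. The only test was limma 3.58.1 on log2(normalized count + 1), with a mean-variance trend, genes kept by filterByExpr of edgeR 4.0.16, cell line as a block and adjusted p under 0.05. It understates the change of low genes. DESeq2 1.42.0 and edgeR were run on recovered reads as alternatives, beside other scalings, filters, pseudocounts and thresholds. Software was R 4.3.3, Python 3.11.15, pandas 2.3.3, numpy 2.4.6 and scipy 1.17.1. Promoters came from RefSeq on GRCh38.p14, with the window nearest the GENCODE canonical start where a gene had several.

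The members and lists were chosen with earlier results of these data known. Values in all 4 libraries were given for members past a log2 fold change of 1 or -1 in both lines and for the extremes of each role; here all members are given. Of other lists, up to 3 genes past it in both lines were named by mean log2 fold change (1 of these genes is not reported here), and others (ORC, RFC, RPA, POLD4, POLE4, RRM2B, TK2, E2F1, RB1, RBL2) were chosen after their values were seen.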

Additional observations from a re-analysis of the deposited data

Results flagged for a closer look

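Of 151 genes compared between the lines, the members and the 5 related lists, 4 were higher in myr-AKT1 cells of one line and lower in those of the other, on the log2 scale, with both counting intervals off 0, and none of them was a member. These differences were not tested. The share of all genes meeting this rule was not taken, so the count cannot be called few or many. RRM2B, the ribonucleotide reductase subunit induced by p53, had 0.50 in A549 and -0.56 in HCC827 cells. DCTD, which makes dUMP from dCMP, had 0.12 and -0.20. IMPDH1, an enzyme of guanine nucleotide synthesis, had -0.64 and 0.41. MTHFD2, a mitochondrial folate enzyme, had -0.71 and 0.16.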

How the results depend on the processing

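The median log2 fold change of the members and the counts below -1 kept their direction under TMM, total reads, size factors over all 4 libraries and a pseudocount of 1, with medians of -2.43 to -2.33 in A549 and -1.63 to -1.53 in HCC827 cells. At a threshold of 2 in place of 1, 10 rather than 39 members passed in HCC827 cells. The calls of the fit depended on its settings, with 34 members called lower by limma, 30 by edgeR with TMM, 39 by DESeq2 and 42 with genes of at least 1 read in any library. Only 7 were called by edgeR with DESeq2 size factors, 13 with size factors over all 4 libraries, 0 with a pseudocount of 0.1 and 0 without the block for cell line. In the limma fits with 0 calls, 44 (pseudocount of 0.1) and 39 (no block) members had an unadjusted p under 0.05. Without the share of all genes at that cut, which was not taken, these counts cannot stand in for calls. Over all genes, limma called 335 lower and 250 higher, edgeR with TMM 228 and 196, edgeR with DESeq2 size factors 57 and 42, DESeq2 518 and 621, limma without the filter 894 and 1101, and limma with size factors over all 4 libraries 101 and 60. Both limma fits with 0 member calls called 0 genes. The cause of these differences was not tested. For single members, 120 alternative values lost the call, 13 gained it and 0 changed direction. No replicate could be left out, because each condition of a line has 1 library, so culture variation is not measured. The only pairing in the design is that by cell line, which is the block of the fit.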
